A study of Mus musculus with 241 samples.

Results

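Interferon-stimulated genes are the genes that cells switch on when type I or type III interferon binds its receptor, and 34 of them were followed here through the first stages of T-cell development in the mouse thymus. They were taken by name, as a fixed list of symbols, and all 34 were found once each among the 24506 genes of the bulk table, in the C1 table and in the gene list of both 10x libraries. All cells were Lin-, 7AAD- (alive), CD44+ and Kit+ cells from the thymus of untreated C57BL/6 mice. The 12 bulk libraries came from Bcl11byfp/yfp mice, in which both copies of Bcl11b, a transcription factor that comes on when cells commit to the T lineage, carry a YFP reporter. By surface marker they were Bcl11b+ DN2a (CD25+ YFP+, 3 libraries), Bcl11b- DN2a (CD25+ YFP-, 3 libraries), Flt3- ETP (CD25- Flt3-, 2 libraries), Flt3+ ETP (CD25- Flt3+, 2 libraries) and total ETP (CD25- without a Flt3 gate, 2 libraries). ETP, the early T-cell progenitors, precede DN2a cells, and no bulk population was sorted without the reporter alleles. Wild-type cells of the whole Lin- 7AAD- CD44+ Kit+ gate were profiled one by one in 2 droplet libraries (10x Chromium v2) and as sets of 96, 35 and 96 cells on the C1 chip. Whether replicates are separate mice is not in the labels. A p-value here therefore speaks of the variation among the libraries at hand, technical or biological.

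Interferon binding its receptor activates the kinases Jak1 and Tyk2, which phosphorylate Stat proteins. Stat2 joins Irf9 in the factor ISGF3, which binds the interferon-stimulated response element in the promoters of its targets. Many products of the targets act against viruses: they sense viral RNA (RIG-I, encoded by Ddx58, Mda5, encoded by Ifih1, and Lgp2, encoded by Dhx58), bind foreign RNA (IFIT proteins), start its decay (OAS proteins) or stop translation (PKR, encoded by Eif2ak2). Others raise the response further, as the transcription factor Irf7 does, or end it, as Usp18 does at the receptor. Several are also expressed at a low constant level in cells that meet no infection.

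The promoter of a gene was taken as the 250 bases before to 50 bases after its start, from RefSeq on GRCm38.p6, and 25 of the 34 genes had one in that table. The response element was searched as GAAANNGAAA on both strands (TTTCNNTTTC where it lies on the other strand), and overlapping matches were counted separately. It was found in 12 of the 25 genes (48%), and in 3.44% of all 32851 promoters. At least 2 matches were held by 5 of the 25 genes and by 0.225% of all promoters. Of the 19 matches in these genes, 14 began within 200 bases before the start. A match describes letters in this window only. The 5 promoters below belong to genes that the results on single cells turn on. Those of Ifit3, Ifit1, Rsad2 and Isg15 belong to genes with large differences between cells, and that of Bst2 to a gene with a small one; matches are in capitals.

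Ifit3, chr19:34583279-34583578 (+): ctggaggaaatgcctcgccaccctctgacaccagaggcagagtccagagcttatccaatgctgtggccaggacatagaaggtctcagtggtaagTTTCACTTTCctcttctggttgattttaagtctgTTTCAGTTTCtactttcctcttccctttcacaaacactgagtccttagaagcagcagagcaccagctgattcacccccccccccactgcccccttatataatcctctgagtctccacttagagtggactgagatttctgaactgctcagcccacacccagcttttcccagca

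Ifit1, chr19:34640639-34640938 (+): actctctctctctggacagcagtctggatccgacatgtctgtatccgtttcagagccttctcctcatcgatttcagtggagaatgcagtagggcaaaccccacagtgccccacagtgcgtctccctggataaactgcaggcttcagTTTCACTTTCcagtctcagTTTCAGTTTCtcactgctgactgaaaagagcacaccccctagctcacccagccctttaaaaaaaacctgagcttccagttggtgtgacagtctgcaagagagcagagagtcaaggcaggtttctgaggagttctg

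Rsad2, chr12:26456403-26456702 (-): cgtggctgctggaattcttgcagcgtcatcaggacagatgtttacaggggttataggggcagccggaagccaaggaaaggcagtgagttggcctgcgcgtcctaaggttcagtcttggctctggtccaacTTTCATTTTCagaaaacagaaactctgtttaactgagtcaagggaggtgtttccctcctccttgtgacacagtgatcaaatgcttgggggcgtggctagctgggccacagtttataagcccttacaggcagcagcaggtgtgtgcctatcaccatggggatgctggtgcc

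Isg15, chr4:156200769-156201068 (-): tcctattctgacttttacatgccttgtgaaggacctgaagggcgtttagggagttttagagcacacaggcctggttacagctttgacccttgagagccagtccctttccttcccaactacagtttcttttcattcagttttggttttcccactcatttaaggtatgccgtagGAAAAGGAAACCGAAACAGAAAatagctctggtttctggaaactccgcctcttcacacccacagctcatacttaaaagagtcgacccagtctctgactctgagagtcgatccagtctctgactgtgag

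Bst2, chr8:71537423-71537722 (-): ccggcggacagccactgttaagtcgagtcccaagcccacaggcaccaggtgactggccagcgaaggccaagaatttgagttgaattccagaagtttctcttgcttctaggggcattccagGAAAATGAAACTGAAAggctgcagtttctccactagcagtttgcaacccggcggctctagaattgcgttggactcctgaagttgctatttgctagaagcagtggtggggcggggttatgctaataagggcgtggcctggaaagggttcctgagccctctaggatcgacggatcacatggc

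Ifit3 and Ifit1 had 2 separate matches each and Rsad2 had 1. Isg15 had 3 overlapping matches, which began 78, 72 and 66 bases before its start. Bst2 had 2 overlapping matches, also within 200 bases before its start. The window of Irf9 and that of Ifi44 held no match, and the genes without a promoter in the table were Usp18, Dhx58, Zbp1, Oas2, Mx1, Rtp4, Parp14, Parp9 and Ifi27l2a.

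Bulk values are FPKM, reads scaled to the length of the gene model and to the size of the library, and the libraries held 21147624 to 38391510 reads on gene models. The kit differed within populations: 8 libraries were made with NEBNext, and the last replicate of each population other than total ETP was amplified with SMART-Seq v4. Levels of 1 gene can differ several-fold between the kits, so the test had a term for the kit, and libraries are best compared within a kit. The sort was visible in its own genes, with Flt3 at 0.123 to 2.73 FPKM in DN2a and 19.3 to 78.5 FPKM in ETP libraries and Il2ra (CD25) at 183.6 to 300.8 FPKM in DN2a and 1.02 to 18.4 FPKM in ETP libraries. The first replicates of both Flt3-sorted ETP populations stood apart by Bcl11b, at 4.54 FPKM in the Flt3- and 5.76 FPKM in the Flt3+ library, and by markers of mature T cells, whose 7 genes summed to 38.8 and 47.8 FPKM, against 7.04 to 14.5 FPKM in the other ETP libraries; the DN2a libraries had 8.82 to 39.3 FPKM. The 12 markers of granulocytes and monocytes summed to 21.9 to 93.1 FPKM in DN2a libraries, 558.2 and 1109.7 in Flt3- ETP, 124.1 and 150.2 in Flt3+ ETP and 234.4 and 246 in total ETP. Markers of erythroid and mast cells (8 genes) summed to 267.6 to 1057.8 FPKM in DN2a and 35.1 to 356.5 FPKM in ETP libraries, and the 7 markers of plasmacytoid dendritic cells in the table, a main source of type I interferon, to 25 to 54.8 FPKM in all 12 libraries. The 8 markers of conventional dendritic cells summed to 9.12 to 33.9 FPKM in DN2a, 32.6 and 25.8 FPKM in Flt3- ETP, 43.5 and 62.1 FPKM in Flt3+ ETP and 14.9 and 11.2 FPKM in total ETP libraries. No marker of these lists was at 0 in all libraries. The part of these cells in the results was not tested, and in bulk samples fewer cells of a type and less RNA per cell cannot be told apart.

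The stages were compared first: both DN2a populations against the 3 ETP populations, as the difference of the means of population means on the log2(FPKM + 1) scale, by limma with Benjamini-Hochberg adjustment over the 12112 genes tested. Of the 34 genes, all of which passed the filter on low values, 16 were lower in DN2a cells and 0 were higher. Of all genes tested, 9.08% were lower and 7.51% were higher. The median change of the 34 genes was -0.41, against 0.03 over all genes tested, and 27 of the 34 were below 0. By role, 3 of 4 genes of signalling and feedback fell, 0 of 4 sensors of RNA and DNA, 7 of 9 of the IFIT and OAS families and PKR, 3 of 7 other antiviral effectors, 1 of 6 genes of ISG15 conjugation and the PARP and TRIM families, and 2 of the 4 others. In 5 genes, Irf7 (mm10 gene model at chr7:141263183-141266424), Irf9 (chr14:55604579-55610030), Ifit3 (chr19:34583529-34588982), Oasl2 (chr5:114896934-114912245) and Ifi44 (chr3:151730923-151749959), every DN2a library lay below every ETP library, which was so for 2.01% of all genes tested.

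**Figure D1:**
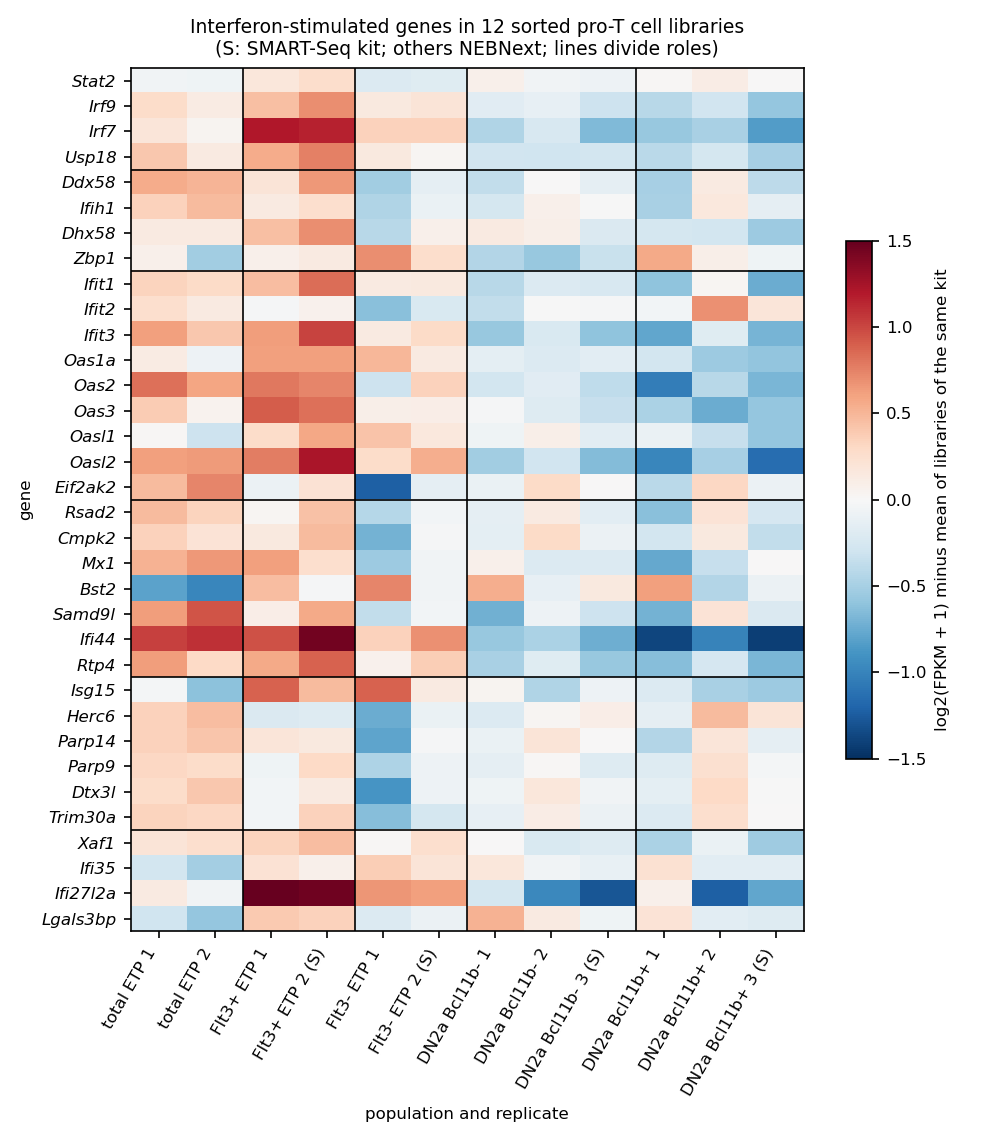
Level of the 34 interferon-stimulated genes (rows, by role) in the 12 bulk libraries (columns, by population). Values are log2(FPKM + 1) minus the mean of the libraries of the same kit, and total ETP was made with NEBNext only. The colour scale ends at 1.5 in either direction. In most rows Flt3+ ETP lies above Flt3- ETP of the same kit. The total ETP libraries are the highest in some rows, such as Samd9l, Eif2ak2 and Parp14. The rows of Irf7, Oasl2, Ifi44 and Ifi27l2a are lowest in the DN2a columns, apart from Bcl11b+ DN2a replicate 1 in the row of Ifi27l2a.

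Among the genes of signalling and feedback, Irf7 fell most. It had 6.27, 6.71 and 5.74 FPKM in Bcl11b+ DN2a, 6.91, 8.15 and 6.61 in Bcl11b- DN2a, 12.7 and 14.4 in Flt3- ETP, 23.9 and 25.6 in Flt3+ ETP and 11.3 and 10.1 in total ETP libraries. The DN2a libraries lay close together, and the Flt3+ ETP libraries were the highest; the change was -1.09 ± 0.09 (SE) on the log2 scale (adjusted p = 9.08e-06, limma). Irf9, the DNA-binding part of ISGF3, had 13.1, 14.4 and 14.8 FPKM in Bcl11b+ DN2a, 15.7, 16.3 and 17.9 in Bcl11b- DN2a, 20 and 25.9 in Flt3- ETP, 24.8 and 37.2 in Flt3+ ETP and 22 and 19.5 in total ETP. Its change was -0.63 ± 0.09 (adjusted p = 0.000522, limma). Usp18, which removes ISG15 from proteins and blocks the receptor, had 4.24, 4.76 and 12.5 FPKM in Bcl11b+ DN2a, 4.66, 4.62 and 14.6 in Bcl11b- DN2a, 6.65 and 18.3 in Flt3- ETP, 9.22 and 30.9 in Flt3+ ETP and 8.15 and 6.55 in total ETP. The last value of each of the first 4 populations is from the amplified kit and is the higher; within each kit the DN2a libraries were the lower ones, and the change was -0.67 ± 0.09 (adjusted p = 0.000417, limma). Stat2, the partner of Irf9, had 9.28, 9.91 and 2.83 FPKM in Bcl11b+ DN2a, 9.72, 8.76 and 2.62 in Bcl11b- DN2a, 7.79 and 2.38 in Flt3- ETP, 10.4 and 3.57 in Flt3+ ETP and 8.80 and 8.63 in total ETP. Its groups overlapped within the NEBNext libraries, and its change of 0.03 ± 0.09 did not pass (adjusted p = 0.870, limma).

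None of the 4 sensors passed. Zbp1, which binds Z-form nucleic acids and can start cell death, was the one with another order of populations, at 4.48, 2.92 and 3.03 FPKM in Bcl11b+ DN2a, 1.72, 1.48 and 2.36 in Bcl11b- DN2a, 4.96 and 4.05 in Flt3- ETP, 2.88 and 3.65 in Flt3+ ETP and 2.90 and 1.57 in total ETP. Its 3 Bcl11b- DN2a libraries lay below its Flt3- ETP libraries, as in 5.46% of all genes tested. They also lay below its Bcl11b+ DN2a libraries, an order that was not counted over all genes. Ddx58 (4.13 to 10.2 FPKM in DN2a, 5.13 to 14.2 FPKM in ETP) had a log2 difference of -0.42 ± 0.14 with an adjusted p of 0.0594 (limma). That of Dhx58 was -0.36 ± 0.12 and that of Ifih1 -0.22 ± 0.13, with adjusted p-values of 0.0620 and 0.295 (limma).

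The OAS family, whose enzymes make the oligoadenylates that switch on RNase L, fell in all 5 of its genes here. Oasl2, an OAS-like protein, had 3.38, 5.12 and 3.58 FPKM in Bcl11b+ DN2a, 5.06, 6.07 and 5.45 in Bcl11b- DN2a, 9.42 and 13.8 in Flt3- ETP, 13.7 and 22.7 in Flt3+ ETP and 12.3 and 12.5 in total ETP. Its change was -1.36 ± 0.14 (adjusted p = 3.66e-05, limma). Oas2 had 1.67, 3.09 and 0.506 FPKM in Bcl11b+ DN2a, 3.54, 3.88 and 0.863 in Bcl11b- DN2a, 3.43 and 2.06 in Flt3- ETP, 8.46 and 3.0 in Flt3+ ETP and 8.74 and 7.23 in total ETP. Here 1 Flt3- ETP library lay among the DN2a libraries of its kit, and the change was -0.99 ± 0.14 (adjusted p = 0.000556, limma). Oas3 had 2.69, 2.06 and 0.210 FPKM in Bcl11b+ DN2a, 4.04, 3.47 and 0.423 in Bcl11b- DN2a, 4.45 and 0.938 in Flt3- ETP, 8.63 and 2.23 in Flt3+ ETP and 5.67 and 4.29 in total ETP, with no overlap of stages within a kit. Its change was -0.79 ± 0.11 (adjusted p = 0.000425, limma). Oas1a (6.40 to 11.3 FPKM in DN2a, 9.18 to 19.9 FPKM in ETP) changed by -0.63 ± 0.10 and Oasl1 (2.61 to 4.02 FPKM in DN2a, 2.71 to 7.42 FPKM in ETP) by -0.39 ± 0.12, with adjusted p-values of 0.000737 and 0.0462 (limma). Oas1a has near-identical neighbours, and how the counting split their reads is not given in the sources used here.

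The IFIT genes, whose products bind viral RNA, were divided. Ifit3 had 1.00, 2.03 and 2.22 FPKM in Bcl11b+ DN2a, 1.31, 1.92 and 2.46 in Bcl11b- DN2a, 2.75 and 5.40 in Flt3- ETP, 4.30 and 9.54 in Flt3+ ETP and 4.26 and 3.54 in total ETP, and its change was -1.02 ± 0.14 (adjusted p = 0.000373, limma). Reads of Ifit3 may be shared with its near-identical copy Ifit3b. Ifit1 had 1.49, 2.87 and 4.73 FPKM in Bcl11b+ DN2a, 1.82, 2.29 and 7.16 in Bcl11b- DN2a, 3.13 and 9.76 in Flt3- ETP, 4.20 and 16.3 in Flt3+ ETP and 3.76 and 3.63 in total ETP. Within each kit its DN2a libraries lay below its ETP libraries, and the change was -0.73 ± 0.14 (adjusted p = 0.00399, limma). Ifit2, in the same cluster on chromosome 19, had 2.53 to 8.60 FPKM in DN2a and 2.06 to 6.10 FPKM in ETP libraries, a difference of 0.14 ± 0.14 (adjusted p = 0.546, limma). Eif2ak2 was at 6.72 to 14.5 FPKM in DN2a and 4.39 to 19.8 FPKM in ETP libraries, a difference of 0.00 ± 0.18 (adjusted p = 0.994, limma).

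Of the other antiviral effectors, Ifi44, an interferon-induced protein of the cytoplasm, showed the largest fall of the 34 genes. It had 0.573, 1.05 and 1.27 FPKM in Bcl11b+ DN2a, 1.76, 1.93 and 2.66 in Bcl11b- DN2a, 4.18 and 8.78 in Flt3- ETP, 6.90 and 15.5 in Flt3+ ETP and 7.36 and 7.72 in total ETP. The 3 libraries of Bcl11b+ DN2a were the lowest of all, and the change was -1.85 ± 0.13 (adjusted p = 2.33e-06, limma). Rtp4, a chaperone of membrane receptors, had 12.7, 16.9 and 40.6 FPKM in Bcl11b+ DN2a, 14.2, 17.8 and 44.4 in Bcl11b- DN2a, 21.1 and 85.9 in Flt3- ETP, 30.5 and 123.8 in Flt3+ ETP and 31.9 and 25.1 in total ETP. Its stages did not overlap within a kit, and the change was -0.94 ± 0.12 (adjusted p = 0.000291, limma). Samd9l, a cytoplasmic restriction factor of poxviruses, had 3.70, 7.90 and 4.11 FPKM in Bcl11b+ DN2a, 3.69, 6.31 and 3.82 in Bcl11b- DN2a, 4.98 and 4.78 in Flt3- ETP, 7.25 and 7.85 in Flt3+ ETP and 10.9 and 13.8 in total ETP. The total ETP libraries were its highest, and its change of -0.61 ± 0.17 passed with an adjusted p of 0.0292 (limma). Bst2 (tetherin), a membrane protein that holds budding virus at the cell surface and also a surface marker of plasmacytoid dendritic cells, was the most abundant of the 34 genes. It had 130, 62.3 and 69.1 FPKM in Bcl11b+ DN2a, 124.7, 78 and 81.9 in Bcl11b- DN2a, 141.2 and 71.1 in Flt3- ETP, 117.1 and 72.7 in Flt3+ ETP and 48.4 and 42.5 in total ETP. The total ETP libraries were its lowest, and its stage change of 0.22 ± 0.18 did not pass (adjusted p = 0.465, limma). Rsad2 (viperin), its neighbour Cmpk2 and Mx1, which encodes no working protein in C57BL/6 mice, did not pass either, at -0.27 ± 0.16, -0.15 ± 0.15 and -0.48 ± 0.16; Mx1 was at 0.244 to 1.5 FPKM in DN2a and 0.389 to 2.70 FPKM in ETP libraries.

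Of the genes around ISG15, the small protein that is attached to others like ubiquitin, only Isg15 itself passed. It had 14.7, 11.9 and 15.8 FPKM in Bcl11b+ DN2a, 17.7, 12.3 and 22 in Bcl11b- DN2a, 32.4 and 25.9 in Flt3- ETP, 32.5 and 32.9 in Flt3+ ETP and 16.8 and 10.8 in total ETP. The Flt3-sorted ETP libraries were its highest and the total ETP libraries lay among or below the DN2a libraries; the change was -0.58 ± 0.15 (adjusted p = 0.0195, limma). Herc6, the mouse ligase for ISG15, the ADP-ribosylation genes Parp9 and Parp14, Dtx3l, the ubiquitin ligase that partners Parp9, and Trim30a ranged from -0.10 to 0.15 in their changes, and none passed (adjusted p from 0.496 to 0.941, limma). Of the others, Ifi27l2a, a small interferon-induced membrane protein, had 9.24, 3.15 and 7.38 FPKM in Bcl11b+ DN2a, 7.08, 3.97 and 4.93 in Bcl11b- DN2a, 14.4 and 21 in Flt3- ETP, 29 and 38.7 in Flt3+ ETP and 9.68 and 8.40 in total ETP. Apart from 1 Bcl11b+ DN2a library above 1 total ETP library, its stages did not overlap, and the change was -1.48 ± 0.21 (adjusted p = 0.000408, limma). Xaf1, which binds an inhibitor of apoptosis, changed by -0.51 ± 0.11 (adjusted p = 0.00792, limma). Lgals3bp, a secreted glycoprotein, had 47.6, 37.1 and 42.3 FPKM in Bcl11b+ DN2a, 59.7, 45.6 and 46.4 in Bcl11b- DN2a, 35.9 and 45.5 in Flt3- ETP, 54.7 and 62.2 in Flt3+ ETP and 33.5 and 27.4 in total ETP. Its stages overlapped throughout (0.14 ± 0.11), and Ifi35, at 14.9 to 46.7 FPKM in DN2a and 11.5 to 57.8 FPKM in ETP libraries, had a difference of -0.03 ± 0.10; neither passed.

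Without a kit term the stage comparison called 4 of the genes, Irf7, Oasl2, Ifi44 and Ifi27l2a, and with a replicate block formed by the 3 series of library numbers, in place of the kit term, it called 20, of which Bst2 was higher. Leaving out 1 library at a time kept 13 to 15 of the 16 calls; Oasl1 lost its call without 9 of the 12 libraries, Samd9l without 8, and Isg15 without replicate 1 of Flt3- ETP, of Flt3+ ETP or of total ETP.

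Between neighbouring populations the calls were few, and these comparisons share libraries with each other and with the comparison of stages. In Flt3- against Flt3+ ETP, 1 gene was lower, Irf7 at -0.83 ± 0.16 (adjusted p = 0.0427, limma), and 0.264% of all genes tested were lower. Of the 34 genes, 31 were below 0, as were 68.4% of all genes tested. An unadjusted p under 0.05 (limma) was reached by 20 of the 34, all of them lower. Of all genes tested, 12.7% were lower and 4.85% higher at that p. The median change was -0.53, against -0.15 over all genes tested. The call was lost without replicate 1 or 2 of Flt3+ ETP or replicate 1 of Flt3- ETP. A fit without replicate 1 or 2 of Flt3- ETP leaves 1 library in that population. The median change was then -0.36 and -0.67, against -0.01 and -0.27 over all genes tested. With the block by series of library numbers 5 of the 34 genes were called, Irf7 among them and all lower, and 3.06% of all genes tested were lower. The Flt3- ETP libraries also held the highest granulocyte and monocyte markers given above.

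In Bcl11b- DN2a against Flt3- ETP, 5 genes were lower, against 2.35% of all genes tested. They were Irf7 (-0.83 ± 0.15), Ifi44 (-1.10 ± 0.21), Ifi27l2a (-1.52 ± 0.33), Oasl2 (-0.90 ± 0.22) and Zbp1 (-0.95 ± 0.24), with adjusted p-values from 0.00932 to 0.050 (limma). In each of the 5 the libraries of the 2 populations did not overlap. Every Bcl11b- DN2a library lay below both Flt3- ETP libraries in 10 of the 34 genes, and in 5.46% of all genes tested. The median of the 34 changes was -0.24, against 0.12 over all genes. A fit without replicate 1 or 2 of Flt3- ETP leaves 1 library in that population, and Ifi27l2a and Oasl2 lost their calls in both fits. The median of the 34 changes was then -0.24 and -0.09, against -0.01 and 0.23 over all genes. The count of calls was 3, 2 and 0, all lower, without replicate 1, 2 and 3 of Bcl11b- DN2a. In these 3 fits 1.67%, 1.86% and 1.35% of all genes tested were lower.

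In Bcl11b- DN2a against total ETP, 9 genes were lower and 2 were higher, against 5.87% and 9.78% of all genes tested. Lower were Ifi44 (-1.67 ± 0.21), Samd9l (-1.22 ± 0.27), Oasl2 (-1.11 ± 0.22), Oas2 (-1.01 ± 0.23), Ifit3 (-0.98 ± 0.23), Rtp4 (-0.87 ± 0.20), Ddx58 (-0.76 ± 0.22), Usp18 (-0.54 ± 0.15) and Irf7 (-0.50 ± 0.15). Ddx58 had 6.95, 9.26 and 5.09 FPKM in Bcl11b- DN2a and 14.2 and 13.7 FPKM in total ETP libraries. Bst2 (1.2 ± 0.29, adjusted p = 0.0241) and Lgals3bp (0.69 ± 0.18, adjusted p = 0.0300, limma) were higher, with no overlap of the libraries, as in 21.1% of all genes tested. With the block by series of library numbers Irf7, Ddx58, Oas2, Usp18 and Lgals3bp were not called, Ifi27l2a was called, and the calls were 6 lower genes and Bst2. The median change was -0.41, against -0.00 over all genes. The count of calls was 1 without replicate 1 of Bcl11b- DN2a or without either total ETP library, and without replicate 3 of Bcl11b- DN2a 3 genes were lower and 1 was higher.

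Between Bcl11b+ and Bcl11b- DN2a, limma called 0 of the 34 genes, while 2.79% of all genes tested changed in either direction. At an unadjusted p under 0.05, 2 were lower and 1 was higher, against 6.89% and 4.57% of all genes tested. Ifi44 came closest, at -0.67 ± 0.18 with all 3 Bcl11b+ libraries below all 3 Bcl11b- libraries (adjusted p = 0.0963, limma), as were 3.20% of all genes tested. The edgeR test on recovered reads called it alone, the limma fit with the block by series, which here pairs libraries of the same replicate number, called it too, and 1 gene was called without replicate 2 of Bcl11b+ DN2a. The median change was -0.16, against -0.04 over all genes.

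Within a series of library numbers, Flt3+ ETP was usually the highest. In the first series, which holds 1 library of each Flt3-sorted and DN2a population, Flt3+ ETP was the highest of 4 for 28 of the 34 genes, and in the amplified series for 29. How often this order holds over all genes was not counted, and 68.4% of all genes tested were below 0 in Flt3- against Flt3+ ETP. The same Flt3+ ETP libraries had the highest sums of conventional dendritic markers, as given above, and the part of such cells in this order was not tested. Their summed level was 391.5, 357.4 and 366.3 FPKM in Bcl11b+ DN2a, 421.7, 379.3 and 412.8 in Bcl11b- DN2a, 441 and 525.2 in Flt3- ETP, 552.8 and 710.3 in Flt3+ ETP and 427.4 and 394.5 in total ETP libraries. This sum leans on Bst2, Lgals3bp and Rtp4, which have the highest mean FPKM, and the total ETP libraries lay within the range of the DN2a libraries or just above it.

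The rest of the interferon pathway was read from lists of other genes in the stage comparison. Of 21 interferon genes in the table, 13 were at 0 in all libraries, the list summed to 0.962 to 1.61 FPKM in DN2a and 0.675 to 1.82 FPKM in ETP libraries, and only Ifnz could be tested, without a call. In the 10x libraries 19 and 18 of the 21 had no UMI, which at a floor of 3 counts allows each up to 0.0692 and 0.0549 CPM, and the list held 7 and 16 UMIs in all. Of 13 receptor and Jak-Stat genes tested, 3 fell and 1 rose. Ifngr2, a chain of the receptor for interferon-gamma, fell most: it had 3.32, 3.37 and 3.81 FPKM in Bcl11b+ DN2a, 1.32, 1.71 and 1.38 in Bcl11b- DN2a, 7.34 and 13.6 in Flt3- ETP, 10.2 and 24.1 in Flt3+ ETP and 8.83 and 8.63 in total ETP, a change of -1.87 ± 0.16. Il10rb, a chain shared by the receptors for type III interferon and interleukin-10, changed by -1.14 ± 0.09, the type I receptor chain Ifnar1 by -0.43 ± 0.12 (adjusted p = 0.0349) and the feedback inhibitor Socs1 by 0.77 ± 0.24 (adjusted p = 0.0496, limma).

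Among the other interferon regulatory factors, Irf8 fell (-1.02 ± 0.13). Of 11 genes that sense nucleic acids upstream of interferon, Tlr7 (-1.38), Samhd1 (-0.79) and Tmem173 (STING, -0.56) fell. Of 20 genes typical of interferon-gamma, among them guanylate-binding proteins and immunity-related GTPases, 4 were lower (Cxcl10, Tgtp1, Tgtp2, Iigp1) and 6 were higher (Gbp3, Gbp4, Gbp6, Gbp7, Igtp, Psmb8), with a median of 0.12. Gbp4 changed most of these, by 1.67 ± 0.26. The shares of all genes tested that were lower or higher are those given above for the stages.

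The 34 genes were then read in wild-type cells, from the 10x libraries. Barcodes with fewer than 1000 genes, or with 10% or more of UMIs from mitochondrial genes, were dropped, which left 4878 and 8434 cells with medians of 8488.5 and 6137 UMIs; 57 cell barcodes occurred in both libraries, and doublets were not removed. Bst2 had the most UMIs, 8332 and 10299 in the 2 libraries. Next came Rtp4 (2593 and 3840), Isg15 (2276 and 2991), Dtx3l (1939 and 2692), Ifi27l2a (1637 and 2232), Lgals3bp (1604 and 1747), Ifi35 (1449 and 1670) and Trim30a (1307 and 1762). The fewest were found for Mx1 (34 and 62), with Oas2 and Ifit3 next. These counts are of transcript ends and do not depend on gene length.

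Cells were divided by the transcripts of the gate's own genes, into those with a Flt3 UMI and no Il2ra UMI (447 and 634 cells), with Il2ra and no Bcl11b UMI (1450 and 2088) and with both Il2ra and Bcl11b UMIs (1197 and 1933); 1784 and 3779 cells had neither Flt3 nor Il2ra. UMIs were summed per class and library and tested with edgeR's quasi-likelihood test, with class and library as terms and 3 residual degrees of freedom. A class cut from UMIs of single genes also holds cells that lacked a transcript only by sampling. In Il2ra cells without Bcl11b against Flt3 cells, the first step, 13 of the 34 genes were lower and 1 was higher, against 11.6% and 8.43% of the 11826 genes tested. In cells with Il2ra and Bcl11b against cells with Il2ra alone, the second step, 9 were lower and 3 were higher, against 13.5% and 12.5%. The median changes were -0.19 and -0.17, against 0.00 and -0.01 over all genes, and the 2 steps share the class in the middle.

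**Figure D2:**
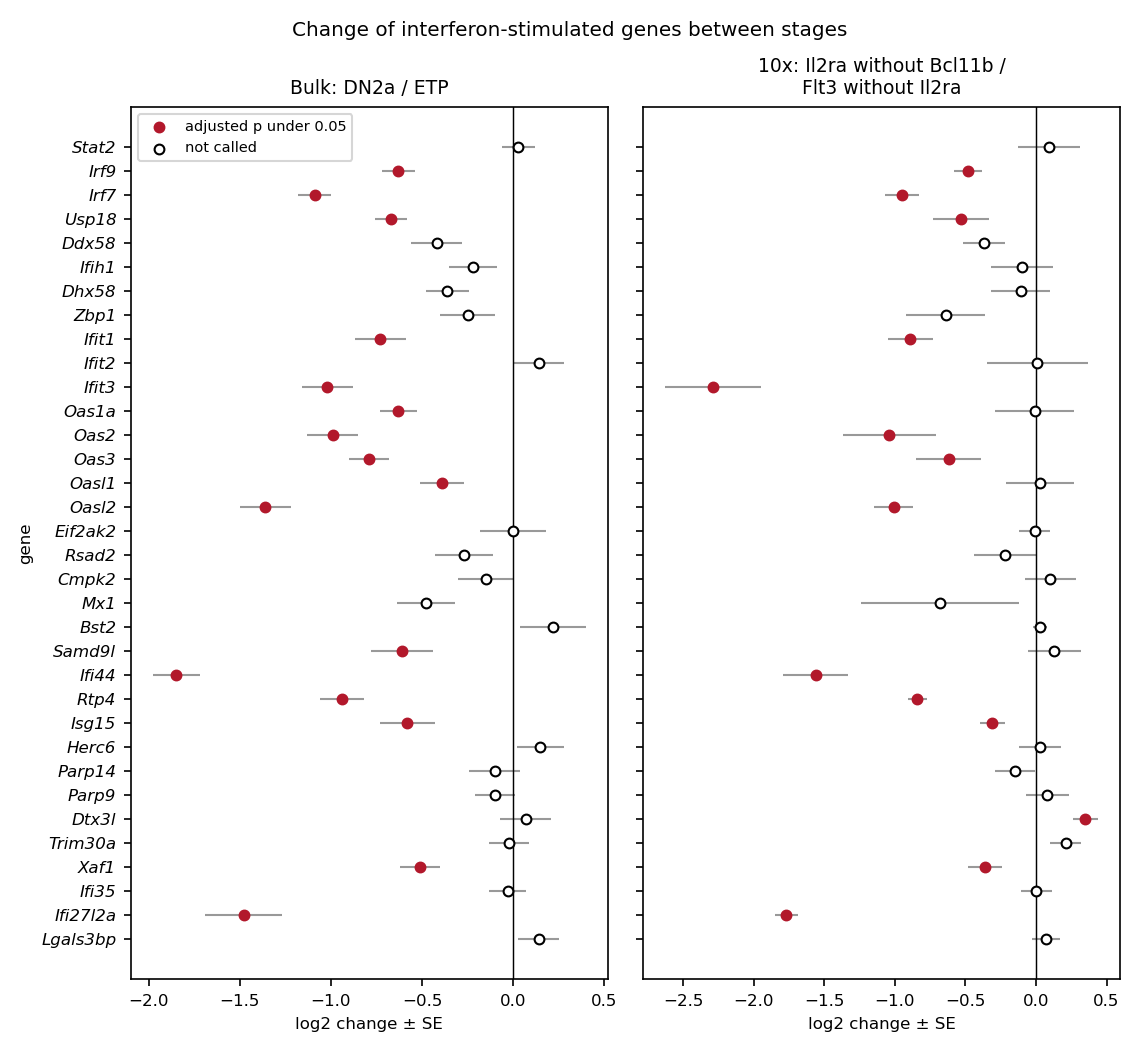
Log2 change ± SE of each of the 34 genes (rows, by role) in bulk DN2a against ETP libraries (left) and in 10x cells with Il2ra and no Bcl11b against cells with Flt3 and no Il2ra (right); red marks genes past an adjusted p of 0.05. The 13 genes lower in 10x cells are all among the 16 lower in bulk, an overlap that was not computed over all genes. Ifi44, Ifi27l2a, Irf7 and Oasl2 lie far to the left in both panels.

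All 13 genes that were lower in the first step were among the 16 lower in bulk DN2a cells, or 81.2% of those 16. How far the calls overlap over all genes was not computed. Both comparisons set cells with CD25 or its transcript against cells without. Ifi27l2a had 26.7 and 23.7 CPM in Il2ra cells and 72.2 and 90.7 CPM in Flt3 cells (change -1.77 ± 0.08). Rtp4 had 56 and 55.6 CPM in Il2ra cells and 81.9 and 107.2 CPM in Flt3 cells (-0.84 ± 0.07), and Irf7 14.2 and 16.4 against 21.1 and 35 CPM (-0.95 ± 0.12). Ifi44 had 3.89 and 3.25 CPM in Il2ra cells, against 8.58 and 11.2 CPM in Flt3 cells (-1.56 ± 0.23), and Oasl2 12.6 and 12.4 against 24 and 23.5 CPM (-1.01 ± 0.14). The largest estimate was that of Ifit3, at 1.60 and 0.898 CPM in Il2ra cells and 5.06 and 6.38 CPM in Flt3 cells (-2.29 ± 0.34), which rests on few UMIs. Ifit1 (-0.89 ± 0.16), Oas2 (-1.04 ± 0.33), Oas3 (-0.62 ± 0.23), Usp18 (-0.53 ± 0.20), Irf9 (-0.48 ± 0.10), Xaf1 (-0.36 ± 0.12) and Isg15 (-0.31 ± 0.09) were also lower, all with adjusted p-values of at most 0.0487 (edgeR). Isg15 moved in opposite directions in the libraries: it had 57.4 and 45.8 CPM in Il2ra cells and 47.5 and 73.1 CPM in Flt3 cells. Dtx3l was the 1 higher gene, at 47.2 and 48.7 CPM in Il2ra cells and 33 and 38.1 CPM in Flt3 cells (0.35 ± 0.09, adjusted p = 0.00192, edgeR).

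In the second step 7 of the genes lower in the first were lower again: Irf7 (-0.52 ± 0.12), Irf9 (-0.36 ± 0.09), Oas3 (-1.07 ± 0.23), Oasl2 (-0.70 ± 0.14), Rtp4 (-0.37 ± 0.07), Isg15 (-0.24 ± 0.08) and Ifi27l2a (-0.29 ± 0.09). Isg15 again differed by library, at 41.5 and 47.4 CPM in cells with Il2ra and Bcl11b and 57.4 and 45.8 CPM in cells with Il2ra alone. Oas1a (-0.73 ± 0.23) and Oasl1 (-0.79 ± 0.20) were lower in this step, and had changes of -0.01 and 0.03 in the first. Zbp1 rose most, to 5.63 and 8.88 CPM in cells with Il2ra and Bcl11b, against 3.73 and 3.32 CPM in cells with Il2ra alone (1.02 ± 0.20, adjusted p = 2.05e-05, edgeR). The bulk libraries had the same order of Zbp1 between Bcl11b+ and Bcl11b- DN2a cells, at 0.65 ± 0.21 without a call. Bst2 had 222.7 and 206.3 CPM in Il2ra and Bcl11b cells, against 197.2 and 186.9 CPM in Il2ra cells (0.12 ± 0.04), and Dtx3l 53.5 and 57.6 against 47.2 and 48.7 CPM (0.18 ± 0.06).

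Markers of other cells differed between the classes too. The 7 mature T markers summed to 399.9 and 436.7 CPM in Il2ra and Bcl11b cells, 38 and 55.1 in Il2ra cells and 19.8 and 23.3 in Flt3 cells, with 0, at most 2 and 1 of the 7 without a UMI. The 12 granulocyte and monocyte markers were at 49.4 and 52.4 CPM in Il2ra and Bcl11b cells, 133.1 and 87.3 in Il2ra cells and 129.2 and 163.7 in Flt3 cells. The 8 conventional dendritic markers were highest in Flt3 cells, at 26.7 and 19.2 CPM in Il2ra and Bcl11b cells, 33.8 and 24.3 in Il2ra cells and 46.4 and 68 in Flt3 cells. The other way went the 8 erythroid and mast cell markers, at 282.9 and 258.1, 209.7 and 180.4, and 40 and 35.6 CPM in the same order of classes, and the 8 markers of NK and innate lymphoid cells, at 101.9 and 92.7, 18.1 and 20.7, and 11.2 and 12.8 CPM. The part of these cells in the changes was not tested, apart from the granulocyte, monocyte and T-cell transcripts that follow. Without cells that had a granulocyte or monocyte UMI, 11 and 6 of the 34 genes were called in the 2 steps, against 14 and 12 with them. This left out 2352 and 3549 cells, or 48.2% and 42.1% of each library, and every gene called with them kept its direction. In the first step the changes without them were -1.63 ± 0.15 for Ifi27l2a, -1.87 ± 0.42 for Ifi44, -1.13 ± 0.21 for Irf7 and -0.84 ± 0.12 for Rtp4, all called. Ifit1 (-0.74 ± 0.28), Ifit3 (-1.72 ± 0.69), Oas2 (-0.96 ± 0.63) and Xaf1 (-0.37 ± 0.20) lost their calls (adjusted p from 0.0702 to 0.395, edgeR). Trim30a, not called with these cells, was called as higher (0.62 ± 0.19, adjusted p = 0.0171, edgeR). In the second step the changes were 1.24 ± 0.25 for Zbp1 and -0.70 ± 0.18 for Oasl2, both called. Irf7 (-0.34 ± 0.16), Oas3 (-0.44 ± 0.32) and Isg15 (-0.03 ± 0.09) were among the genes that lost their calls (adjusted p from 0.136 to 0.880, edgeR). Without the 651 and 1245 cells that had a Cd3e or Cd3d UMI, 13 and 9 genes were called.

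**Figure D3:**
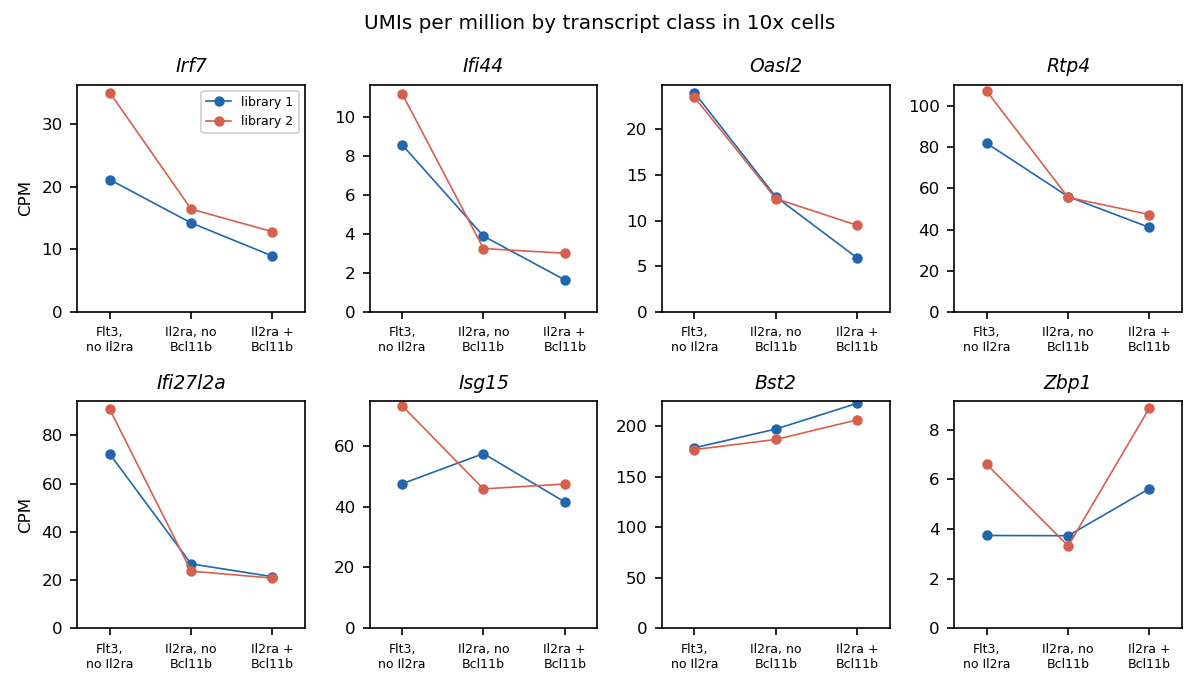
Level in CPM of 8 of the genes (panels) in classes of 10x cells, in their order from Flt3 without Il2ra to Il2ra with Bcl11b. Points are the 2 libraries, and cells with neither Flt3 nor Il2ra are not drawn. Irf7, Ifi44, Oasl2, Rtp4 and Ifi27l2a are lower in cells with Il2ra. Bst2 lies at 176.9 to 222.7 CPM in the classes drawn, and Zbp1 is higher in cells with both Il2ra and Bcl11b.

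Single cells showed how the genes were spread. Each cell was thinned to 4000 UMIs, which left out 250 and 1456 shallower cells and kept 4628 and 6978. The median cell held UMIs of 2 of the 34 genes in both libraries, and 12.2% and 12.8% of cells held none. At the other end, 1.73% of cells (95% Clopper-Pearson interval 1.4 to 2.15) and 1.79% (1.49 to 2.13) held 10 genes or more, 19 cells (0.411%) and 29 cells (0.416%) held 15 or more, and the richest cells held 21 and 24. Intervals here cover counting error only.

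**Figure D4:**
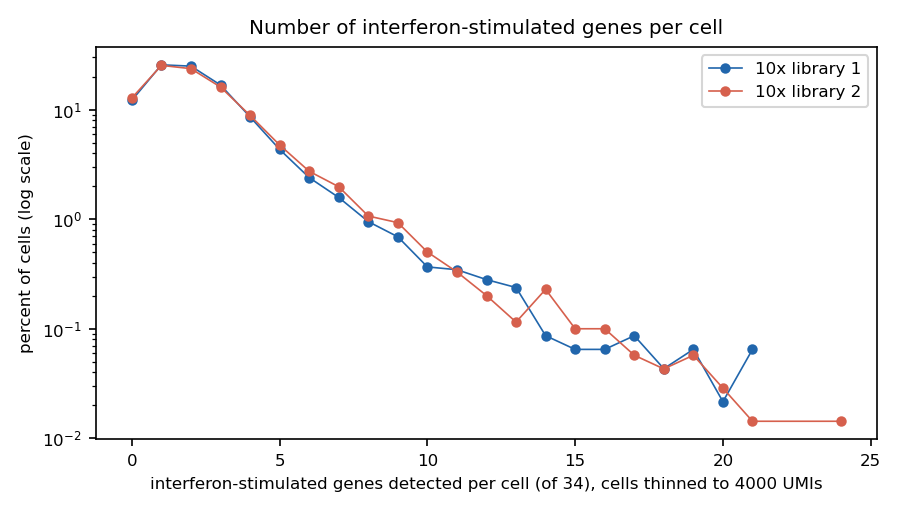
Percent of 10x cells (log axis) by the number of distinct interferon-stimulated genes with a UMI after thinning to 4000 UMIs, with 1 line per library; numbers of genes found in no cell are not drawn. Most cells hold 0 to 5 of the genes, and both libraries have a tail of cells out to 21 and 24.

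The summed UMIs of the 34 genes had a mean of 3.12 and 3.19 per cell and a variance 4.65 and 4.85 times the mean. The 1% of cells with most of them held 9.33% and 8.94% of all these UMIs, and the 10% with most held 36.2% and 36.8%. Gene by gene, the variance over the mean had a median of 1.11 and 1.12 over the 31 and 33 genes with at least 50 UMIs, against 1.02 and 1.01 over all other such genes. It lay above the 90th percentile of the other genes (1.10 and 1.09) for 17 and 19 of the genes, and was highest for Ifit1, at 3.49 and 3.54.

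To describe the cells rich in these genes, each gene was set aside in turn, and the 1% of cells with most UMIs of the other 33 (47 and 70 cells) were compared with all other cells. The gene described was thus never used to rank the cells, but no p-value is given, since cells of a library are not replicates. The level of 33 of the 34 genes was at least 2 times as high in the rich cells in both libraries, and 1.62% of 9766 other genes were. The other genes had at least 50 UMIs in each library and were read in cells ranked by all 34 genes. Of the 34, which had no such floor, Mx1 fell below it in both libraries, and Ifit2 and Oas2 in library 1. The median ratio was 9.74 and 9.71 over the 34 genes, and 0.937 and 0.967 over the others. The exception was Lgals3bp, at 1.90 and 3.74 times.

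**Figure D5:**
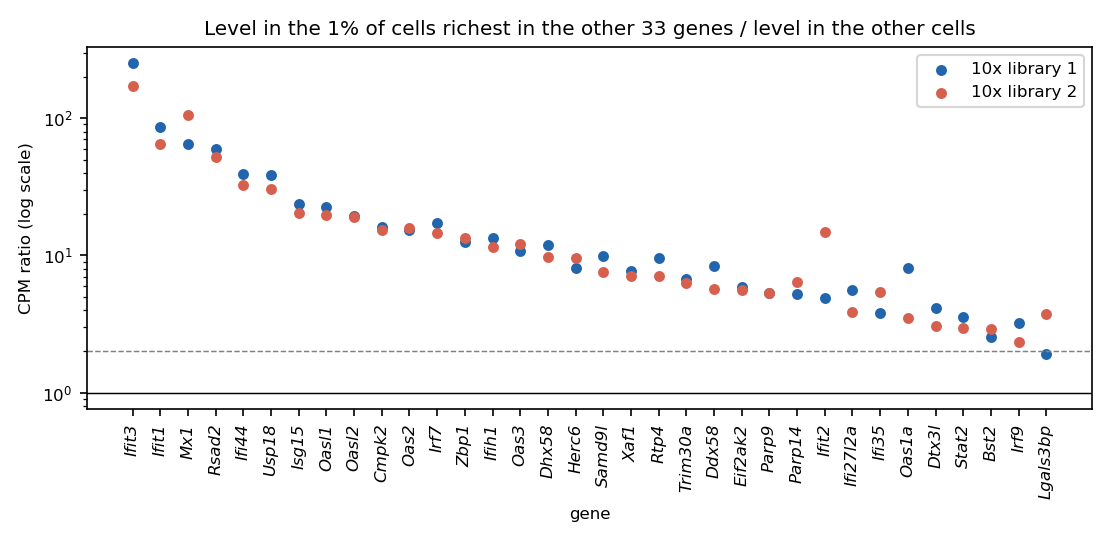
Ratio (log axis) of the level of each gene between the 1% of 10x cells richest in the other 33 genes and all other cells, with 1 point per library and a dashed line at 2. Ifit3, Mx1, Ifit1 and Rsad2 stand highest, and Stat2, Bst2, Irf9 and Lgals3bp lowest.

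The genes differed widely in this ratio. Ifit3 had 191.5 and 167.9 CPM in rich cells, against 0.764 and 0.977 CPM in other cells, so that 72% and 63.5% of its UMIs lay in 1% of the cells. Ifit1 had 659.6 and 610.7 CPM in rich cells and 7.64 and 9.37 CPM in others, and was found in 80.9% and 67.1% of rich cells and 2.25% and 2.74% of others. Rsad2 was at 319.1 and 325 CPM in rich cells and 5.35 and 6.26 CPM in others. Mx1, with few UMIs, was 65 and 105.3 times as high in rich cells. Ifi44 (39.3 and 32.6 times), Usp18 (38.7 and 30.4) and Isg15 (23.5 and 20.3) followed, and Isg15 had a UMI in 93.6% and 88.6% of rich cells and 12.9% and 13.3% of others. Irf7 was 17.2 and 14.6 times as high.

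Other genes differed less between rich and other cells. Bst2 had 473.4 and 528.6 CPM in rich cells and 187.1 and 182.4 CPM in others, with a UMI in 49.8% and 49.6% of all thinned cells. Irf9 was 3.20 and 2.33 times and Stat2 3.58 and 2.95 times as high in rich cells, the smallest ratios of the genes of signalling and feedback. Pairs of genes showed the same contrast. Isg15 was found in 56.7% and 58.9% of cells with an Ifit1 UMI and 12.4% and 12.5% of cells without, in 53.5% and 47.6% of cells with Usp18 and 12.4% and 13.2% without, and in 14.8% and 16.5% of cells with Bst2 and 12.7% and 11.8% without. Irf9 was found in 11.5% and 10.7% of cells with Stat2 and 9.78% and 10.7% without. Free RNA in the droplets was not measured, and no cell type that should lack these genes was at hand to measure it.

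Genes outside the list were read in the 1% of cells with most UMIs of all 34 genes. The 15 with the largest ratios, by the smaller of the libraries, were Iigp1 (83.1 and 50.2 times), Pydc4 (35.8 and 22.1), Gm4955 (26.3 and 20.9), Phf11b (23.5 and 20), Ifit1bl1 (23.8 and 11.6), Ube2l6 (10.4 and 12.3), Tgtp1 (9.75 and 12.3), Igtp (9.23 and 10.1), Isg20 (8.12 and 8.03), Ddx60 (7.84 and 13), Ms4a4b (7.50 and 12.8), Serpina3f (11.2 and 7.45), Phf11c (10.7 and 7.45), Trim30d (9.28 and 6.95) and Irgm2 (7.80 and 6.73). Iigp1, Tgtp1, Igtp and Irgm2 are GTPases induced by interferon, Ube2l6 is the conjugating enzyme of ISG15, and Isg20 an interferon-induced nuclease. The receptor chain Ifnar1 was 0.876 and 1.26 times and the proteasome gene Psmb8 1.04 and 1.32 times as high. Ly6a (Sca-1) had a UMI in 51.1% and 57.1% of rich cells and 22.6% and 19.7% of others. Kit had one in 25.5% and 18.6% of rich cells and 31.5% and 32.9% of others. The dividing-cell genes Top2a (0.415 and 0.577 times) and Mki67 (0.622 and 0.657) were lower in rich cells.

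Ranked by all 34 genes, the rich cells were spread over the classes. They made up 0.909% (0.248 to 2.31) and 1.53% (0.702 to 2.89) of Flt3 cells without Il2ra, 1.13% (0.646 to 1.83) and 0.432% (0.187 to 0.850) of Il2ra cells without Bcl11b, 0.564% (0.207 to 1.22) and 0.765% (0.396 to 1.33) of cells with both, and 1.23% (0.764 to 1.88) and 1.38% (0.992 to 1.87) of cells with neither. The order of the classes was not the same in both libraries. Il2ra had a UMI in 38.3% and 27.1% of rich cells and 41.8% and 39.5% of others, and Flt3 in 8.51% and 12.9% of rich cells and 5.17% and 5.88% of others. ETP markers (10 genes) summed to 1042.6 and 1317.9 CPM in rich cells and 929.8 and 957 CPM in others, and DN2a markers (10 genes) to 680.9 and 750 against 903.7 and 890.9 CPM. Markers of granulocytes and monocytes (12 genes, 6 and 6 without a UMI in rich cells) were at 250 and 235.7 CPM in rich cells and 151.9 and 141.1 CPM in others, of plasmacytoid dendritic cells (8 genes, 5 and 4 without) at 175.5 and 210.7 against 132.1 and 143.3 CPM, and of mature T cells (7 genes, 4 and 3 without) at 21.3 and 57.1 against 139.2 and 113.8 CPM. Those of conventional dendritic cells (8 genes, 6 and 5 without) were at 53.2 and 39.3 against 30.5 and 26.1 CPM. Erythroid and mast cell markers (8 genes, 5 and 6 without) were at 266 and 232.1 against 206.7 and 174.4 CPM. The 8 markers of NK and innate lymphoid cells were at 21.3 and 28.6 against 40 and 37.1 CPM. The 8 markers of B cells were at 53.2 and 14.3 against 39.4 and 37.6 CPM. The part of all these cells in the result was not tested. Rich cells had been sequenced less deeply before thinning, with medians of 6527 and 5320.5 UMIs against 8766 and 6752 in others. The least rich of them held 20 and 19 UMIs of the 34 genes, and 24 and 44 cells lay within 2 UMIs of that boundary. With these 1% of cells left out, 12 of the 34 genes were called in each of the 2 steps between classes.

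The C1 chip reads whole transcripts of single wild-type cells, and 92 of 96, 35 of 35 and 95 of 96 cells of its 3 sets had at least 1000 genes over 1 FPKM. The median of these cells had 8 of the 34 genes over 1 FPKM, and the range was 0 to 33. Lgals3bp was over 1 FPKM in 75.2% of cells, Ifi35 in 68%, Bst2 in 58.6%, Irf9 in 52.7% and Rtp4 in 47.3%. Irf7 was over 1 FPKM in 19.8% of cells, Isg15 in 8.11%, Ifit1 in 7.21% and Ifit3 in 3.15%. At least 10 of the genes were over 1 FPKM in 36.9% of cells (30.6 to 43.7), and in 50%, 34.3% and 25.3% of the cells of the 3 sets of library numbers, whose median cells had 5074, 5186 and 4118 genes. The richest cell had 33 of the 34 genes over 1 FPKM, summing to 6866.2 FPKM against a median of 358.1 FPKM over all cells. It had Flt3 and no Il2ra, with Ifit1 at 1056.1 FPKM and Ifit3 at 550 FPKM. Isg15 was found in 43.8% (19.8 to 70.1) of the 16 cells with Ifit1 and 5.34% (2.70 to 9.35) of the others. Irf7 was over 1 FPKM in 33.3% (22.2 to 46) of 66 cells with Flt3 and no Il2ra, 16% (9.22 to 25) of 94 cells with Il2ra and no Bcl11b, 10.3% (2.19 to 27.4) of 29 cells with both and 12.1% (3.4 to 28.2) of 33 cells with neither. Not all genes had this order. Rtp4 was over 1 FPKM in 56.1%, 41.5% and 58.6% of the cells with Flt3, with Il2ra and with both Il2ra and Bcl11b, Bst2 in 60.6%, 57.4% and 69%, and Isg15 in 10.6%, 5.32% and 13.8%. The median number of the 34 genes per cell was 9, 7 and 11 in these classes, whose median cells had 4752.5, 4507 and 5316 genes. The labels name no animal or chip for these cells, so no test was made between the classes.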

How the data were processed

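Gene expression was measured in 12 bulk libraries, 2 10x libraries and 3 sets of 96, 35 and 96 C1 cells. The bulk values deposited by the authors are FPKM, counted by HOMER on the exons of RefSeq gene models of mm10 per the file headers, and the C1 values are FPKM that the authors deposited per gene. The 10x matrices hold UMI counts deposited by the authors. The submitters' processing notes name STAR 2.4.0, RSEM 1.2.25, HOMER, edgeR 3.6.8 and Cell Ranger 2.0; strand use in counting is not given in the sources used here. The kits followed the labels' protocols.

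Bulk genes were tested if 2 or more libraries exceeded 1 FPKM (12112 of 24506), with limma 3.58.1 (R 4.3.3, variance trend) on log2(FPKM + 1), with terms for population and kit in 1 fit of all 12 libraries, two-sided, at a Benjamini-Hochberg adjusted p under 0.05. The pseudocount of 1 understates changes of genes at low FPKM. Whole reads could be recovered for 97.1% to 100% of values within 0.1 read, and edgeR 4.0.16 on them was an alternative. The replicate block groups libraries by series of library numbers, since the amplified replicates carry no replicate number in the labels. It follows the replicate number in DN2a, where libraries of a series deviated together (correlations 0.91, 0.93 and 0.98, which include the kit) and were taken as pairs; the correlations of total ETP with DN2a libraries of its series were -0.17 to 0.17.

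10x cells had at least 1000 genes and under 10% mitochondrial UMIs, and doublets were not removed. Class sums with at least 10 UMIs in at least 2 sums were tested with edgeR; the spread over cells was read after thinning to 4000 UMIs (seed 1). Scripts were checked on simulated data. Alternatives were other pseudocounts, filters, scalings, kit terms, blocks, tools, depths and left-out libraries.

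The 34 genes, the other lists and the tests were chosen with earlier results of these data known. Values in every library were given for the genes called in a comparison (at most 8 by smallest p), for Irf7, Stat2, Irf9, Isg15, Ifit1, Ifit3, Usp18 and Bst2, and for the 3 with the highest mean FPKM. In 10x cells the genes called, the 8 with most UMIs, and the 15 other genes with the largest smaller ratio in rich cells were named. Ddx58, Ifngr2 and the genes of single cells described beyond this were chosen after their values were seen. Some genes of the other lists are not reported here.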

Additional observations from a re-analysis of the deposited data

How the results depend on the processing

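The count of 16 genes called in the comparison of stages was 11 to 20 under every alternative except the fit without a kit term, which called 4, and 14 to 16 when 1 library was left out. With a replicate block by series of library numbers it was 20, which included all 16, and edgeR on recovered reads called 18, again with all 16. The other bulk counts moved more, and the cause was not tested. Flt3- against Flt3+ ETP (1 call) gave 0 with a pseudocount of 0.1, no filter, quantile scaling, no kit term or edgeR, 2 with the compared populations only and 5 with the replicate block. The share of all genes tested that was called rose from 0.685% to 4.74% and 4.85% in the last 2 of these. The call was also lost with NEBNext libraries only and without the 2 ETP libraries of the first series (chosen after seeing the data). It was not kept in every fit with 1 library left out, and all these fits left 1 library in a population. Bcl11b- DN2a against Flt3- ETP (5 calls) gave 1 with no filter, 0 with no kit term or NEBNext libraries only, 2 with the compared populations only, 3 without the first-series ETP libraries, and 0 to 8 with 1 library left out. Bcl11b+ against Bcl11b- DN2a (0 calls) gave 1 with a pseudocount of 0.1, the replicate block, edgeR, or without the first-series ETP libraries, and 0 to 1 with 1 library left out. Bcl11b- DN2a against total ETP (11 calls) gave 1 with no filter, 0 with no kit term, 1 with NEBNext libraries only, 7 with the replicate block (6 of the 11 and Ifi27l2a), and 1 to 10 with 1 library left out. The replicate block moved no other count by over 1.5 times. Over all bulk comparisons, 606 alternative values of single called genes were computed; 435 kept direction and call, the rest lost the call and 0 reversed. In 10x cells, the calls of the first step (14) became 7 with classes that required at least 2 UMIs of Il2ra or Flt3, and those of the second (12) became 4 with such classes and 6 without the 48.2% and 42.1% of cells carrying granulocyte and monocyte transcripts. Isg15 alone reversed: its first-step change was 0.27 in library 1 and -0.67 in library 2, and its second-step change -0.47 in library 1 and 0.05 in library 2. With 1 library no degrees of freedom remain for a test. The count of 33 genes at least 2 times as high in rich cells was 31 to 34 under every alternative. In C1 cells, 24.8% had at least 10 of the genes over 10 FPKM, against 36.9% over 1 FPKM. Depth limits the rare transcripts, Mx1, Oas2 and Ifit3 in 10x cells above all.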
